A study of Mus musculus with 2 samples.

Results

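The genes described here are 9 imprinted genes with known roles in fetal growth, Dlk1, Meg3, Rian, Mirg, Peg3, Plagl1, Cdkn1c, Grb10 and Mest. They were taken from a fixed list of names, which was chosen with earlier results of these data known. They are 9 of the 22652 genes with a count in either library. All 9 were present in both tables. The cells are lineage-depleted bone marrow cells from the femur of C57BL/6 mouse embryos at E18.5, late in gestation, crushed, digested with collagenase and depleted of committed blood cells with antibodies to Ter119, Gr-1, B220 and CD3e, so that haematopoietic progenitors and the cells of their microenvironment remained. They were profiled by single-cell RNA sequencing on the BD Rhapsody platform, with 1 library of wild-type cells and 1 library of Bmx-CreER Wls cells. The latter is the genotype given by the label, without further detail. Wls encodes a carrier protein that Wnt ligands need to leave the cell. In the mutants that the study describes, floxed Wls is removed by a tamoxifen-activated Cre driven by Bmx, an arterial endothelial gene. The sources used here name neither the number of embryos in a library nor the litter and tamoxifen treatment of the wild-type library, so that a difference between the libraries cannot be told apart from a difference between embryos, treatments or library preparations. No test between the conditions was possible, and every interval given is a 95% interval that covers counting error only.

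Imprinted genes are read from only 1 of the parental chromosomes, according to a methylation mark set in the egg or the sperm. In the mouse, Dlk1, Peg3, Plagl1 and Mest are expressed from the paternal copy, and Meg3, Rian, Mirg and Cdkn1c from the maternal copy, as is Grb10 outside the nervous system. Most of these genes are high in fetal tissues and fall after birth. The counts do not separate the parental copies, so that they give the level of each gene and not its imprint.

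In GENCODE positions on GRCm38, Dlk1 (chr12:109452823-109463336), Meg3 (chr12:109541001-109571726), Rian (chr12:109603940-109661716) and Mirg (chr12:109729764-109749460) lie in this order on the plus strand of chromosome 12, within 297 kb. The gap between Dlk1 and Meg3 is 77.7 kb. Dlk1 codes for a protein of the Delta family with EGF-like repeats, found on the cell surface and as a shed form. Meg3, Rian and Mirg are long noncoding RNAs, and Rian and Mirg are host transcripts of small nucleolar RNAs and microRNAs. The annotation places 66 microRNA genes in the interval. The other 5 genes are single protein-coding genes elsewhere, with Peg3 (chr7:6703892-6730431) and Cdkn1c (chr7:143458339-143461050) on the minus strand of chromosome 7, Plagl1 (chr10:13060504-13131694) on the plus strand of chromosome 10, Grb10 (chr11:11930508-12038683) on the minus strand of chromosome 11 and Mest (chr6:30723547-30748465) on the plus strand of chromosome 6.

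For each of the 4 genes of the chromosome 12 locus, the 3 genes with the most similar pattern over cell types were the other 3, as given further on, and the 250 bases before their starts are shown here for that reason. The sequences are those of RefSeq on GRCm38.p6, read 5′ to 3′ on the plus strand, with every CG dinucleotide, the site of DNA methylation, in capitals. CG reads the same on both strands.
Dlk1, chr12:109452573-109452822: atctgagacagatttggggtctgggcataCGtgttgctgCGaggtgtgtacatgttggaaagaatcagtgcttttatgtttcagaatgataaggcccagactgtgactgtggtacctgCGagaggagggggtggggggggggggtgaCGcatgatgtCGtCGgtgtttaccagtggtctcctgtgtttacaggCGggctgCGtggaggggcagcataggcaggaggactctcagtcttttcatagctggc
Meg3, chr12:109540746-109540995: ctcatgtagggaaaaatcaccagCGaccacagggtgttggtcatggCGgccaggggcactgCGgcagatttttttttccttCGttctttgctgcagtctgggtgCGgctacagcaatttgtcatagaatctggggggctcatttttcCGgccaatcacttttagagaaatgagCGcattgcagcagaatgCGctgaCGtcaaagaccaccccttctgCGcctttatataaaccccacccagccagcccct
Rian, chr12:109603695-109603944: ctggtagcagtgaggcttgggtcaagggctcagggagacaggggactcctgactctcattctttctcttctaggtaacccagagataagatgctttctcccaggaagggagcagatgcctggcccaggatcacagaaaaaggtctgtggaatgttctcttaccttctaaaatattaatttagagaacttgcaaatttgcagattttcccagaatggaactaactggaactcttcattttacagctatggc
Mirg, chr12:109734731-109734980: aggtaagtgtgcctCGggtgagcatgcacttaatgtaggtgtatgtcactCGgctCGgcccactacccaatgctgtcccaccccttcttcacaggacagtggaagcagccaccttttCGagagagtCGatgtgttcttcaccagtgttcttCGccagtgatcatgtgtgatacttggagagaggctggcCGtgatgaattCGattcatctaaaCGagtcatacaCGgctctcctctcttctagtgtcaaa
The window of Dlk1 holds 8 CG, that of Meg3 10, that of Mirg 10 and that of Rian 0. Among 32851 RefSeq promoter windows of the same length the median is 6 CG, and 7.87% hold none. Meg3 has a further RefSeq start whose window holds 0 CG, and the window of Mirg lies inside the longer GENCODE gene. The 4 windows thus differed in CG content. RefSeq start windows were found for 8 of the 9 genes, Cdkn1c being the exception.

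The wild-type library held 5736 cells that passed the quality filter of the study, with a median of 3128 UMIs (unique molecular identifiers, 1 per captured RNA molecule), and the Bmx-CreER Wls library 6620 cells with a median of 3067 UMIs. The libraries shared 49 cell barcodes. Clustering of both libraries together, with the 9 genes left out, gave 16 clusters, which are called "-like" a cell type where marker genes set their name and otherwise by their leading genes. The tendon-like name rests on 3 of 5 tendon markers, and the BMSC-like cluster also had 3 of these 5 more than 2-fold above the other cells. At a finer resolution a cluster led by Tnmd, Kera and Scx held 264 cells, most of them BMSC-like, so that the tendon-like cluster does not hold all cells with these markers. The largest, the Tnn/Ucma cluster, held 13.8% of the wild-type and 26.4% of the Bmx-CreER Wls cells. The level of a gene is its share of the UMIs of a cluster, scaled to 1000000 (CPM). Molecules are captured by their poly(A) tail and are not divided by gene length, so that ranks and ratios of different genes are of UMIs and not of expression per length, and a ratio is set against the same ratio in another cluster or library. Wls itself was at 135 CPM in the whole wild-type and 112 CPM in the whole Bmx-CreER Wls library. In the arterial EC-like cluster Wls had 10 and 3 UMIs, or 40.2 and 10.6 CPM, a ratio of 0.263 with an interval of 0.0465 to 1.02. Wls was at 39.1 and 22.8 CPM in Cd36/Fabp4 EC-like cells and at 50.7 and 32.2 CPM in Stab1/Fam167b EC-like cells. A lower level was not limited to EC-like clusters. The ratio was 0.689 (0.590 to 0.807) in the Tnn/Ucma cluster, 0.758 (0.680 to 0.845) in BMSC-like and 0.775 (0.674 to 0.890) in osteoblast-like cells. It was above 1 in chondrocyte-like cells, at 1.32 (1.05 to 1.66), and in osteoclast-like cells, at 1.90 from 8 and 10 UMIs. Where the counted reads lie relative to the floxed part of Wls is not given in the sources used here, and the 3 UMIs are too few to check the label.

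Dlk1 was among the genes with the most UMIs in these cells of the fetal femur, which include cartilage cells. It took 4541 of every 1000000 UMIs of the wild-type library, the 14th highest of 21147 genes, and 7394 of the Bmx-CreER Wls library, where it was the 9th highest of 21214. In wild-type cells Dlk1 was highest in the Tnn/Ucma cluster at 11352 CPM (11197 to 11508), followed by BMSC-like cells, the bone marrow stromal cells that express Col3a1 and Dcn, at 10871 CPM (10765 to 10977) and by the Prg4/Cilp cluster at 9997 CPM. The first 3 levels were separated by more than their counting intervals. In these 3 clusters the summed level of 6 chondrocyte markers was 81086.5, 2501 and 31420 CPM, against 139449 CPM in chondrocyte-like cells. Mural-like cells, which surround vessels, held 6699 CPM, chondrocyte-like cells 4694 CPM, tendon-like cells 1400 CPM and hypertrophic chondrocyte-like cells 982 CPM. Dlk1 was low in Cd36/Fabp4 EC-like cells at 351 CPM, in osteoblast-like cells at 160 CPM and in osteoclast-like cells, which are blood-derived, at 56.2 CPM.

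The Mpo/Myb cluster had 7 of 9 markers of haematopoietic progenitors, 6 of 6 of erythroid cells and 4 of 5 of mast cells and basophils more than 2-fold above the other cells. No cell type name was given to it. At an equal depth of 1000 UMIs per cell, 99.9% of the wild-type Tnn/Ucma cells had at least 1 Dlk1 UMI, against 3.64% of osteoclast-like and 9.76% of Mpo/Myb cells. Without thinning, every Tnn/Ucma cell had a Dlk1 UMI, against 14.3% and 31.9%. Free RNA in the suspension can give such low shares, and its level was not measured here. Dlk1 in wild-type blood cells named by the study was at 275 CPM in myeloid progenitors, 265 CPM in megakaryocyte progenitors, 79.0 CPM in multipotent HSPCs, 41.8 CPM in neutrophil progenitors and 25.1 CPM in erythroid cells. Whether these levels are expression or free RNA was not tested. Among the wild-type cells that carry a cell type name of the study, 940 cells named eBMSC-1 had 10927 CPM of Dlk1 and 149 cells named eBMSC-2 had 2466 CPM. Endothelial cells named by the study held only 33.8 CPM in 232 capillary-1 cells, 38.4 CPM in 56 arterial cells and 38.9 CPM in 47 sinusoidal cells. Dlk1 in these named endothelial cells was thus below its level in the EC-like clusters and near that in the osteoclast-like cluster.

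**Figure D1:**
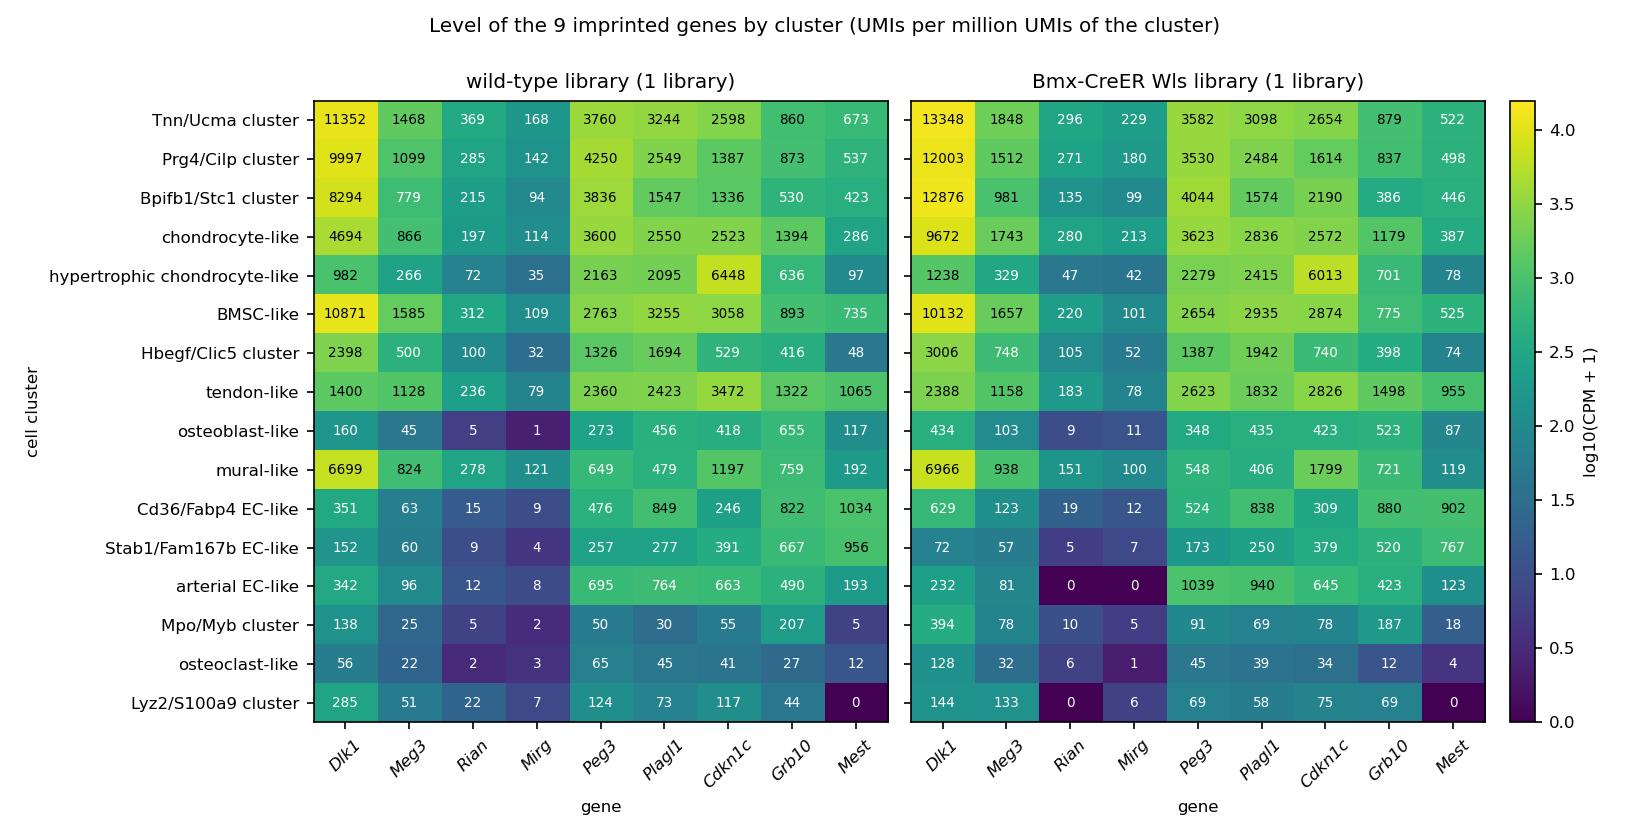
CPM of the 9 genes in the 16 clusters of each library, on a log scale. Dlk1, Meg3, Rian and Mirg share the mesenchymal clusters at the top of the plot, and Cdkn1c has its highest level in hypertrophic chondrocyte-like cells. Mest is high in Cd36/Fabp4 and Stab1/Fam167b EC-like cells, where Dlk1 is low, but not in arterial EC-like cells.

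The noncoding RNAs of the locus followed Dlk1 over the clusters. Meg3 was highest in wild-type BMSC-like cells at 1585 CPM (1544 to 1626) and in the Tnn/Ucma cluster at 1468 CPM (1412 to 1525). Rian reached 369 CPM (342 to 398) in the Tnn/Ucma cluster and 312 CPM (294 to 331) in BMSC-like cells, and Mirg 167 CPM (149 to 187) in the Tnn/Ucma cluster. The intervals of Meg3 in these clusters did not overlap, and neither did those of Rian. In osteoclast-like cells Meg3 had 28 UMIs, Rian 3 and Mirg 4. Across the 32 combinations of cluster and library, the Pearson correlation of log2(CPM + 10) between any pair of the 4 genes was 0.952 to 0.973. Among 8955 genes with at least 500 UMIs, the 3 genes most like each of the 4 were the other 3. The points share libraries and the clusters differ in depth, so that these values describe the pattern and are given without a test.

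Transcripts of the locus were not in a constant ratio. In wild-type cells there were 10.7 UMIs of Dlk1 for 1 of Meg3 in the Bpifb1/Stc1 cluster (9.31 to 12.2), 7.73 in the Tnn/Ucma cluster, 5.42 in chondrocyte-like cells and only 1.24 in tendon-like cells (1.03 to 1.49). In the Bmx-CreER Wls library the ratio was 13.1 in the Bpifb1/Stc1 and 2.06 in the tendon-like cluster, and 1.26 in Stab1/Fam167b EC-like cells, from 29 and 23 UMIs. Meg3 in tendon-like cells was at 1127 and 1158 CPM, beside Dlk1 at 1400 and 2388 CPM. In the larger finer cluster led by Tnmd, Meg3 was at 1014 and 1046 CPM and Dlk1 at 2291 and 2887 CPM. Over the whole library the ratio of Dlk1 to Meg3 was 6.84 in wild-type and 6.80 in Bmx-CreER Wls cells.

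Peg3 and Plagl1 encode zinc finger proteins, and both were high in cells of cartilage and stroma. Peg3 was highest in the wild-type Prg4/Cilp cluster at 4250 CPM (4148 to 4353), then in the Bpifb1/Stc1 cluster at 3836 CPM (3617 to 4065), the Tnn/Ucma cluster at 3760 CPM (3671 to 3850) and chondrocyte-like cells at 3600 CPM (3531 to 3669). Among the latter 3, neighbours in the order had overlapping intervals. Plagl1 was at 3255 CPM (3197 to 3314) in BMSC-like cells and 3244 CPM (3162 to 3329) in the Tnn/Ucma cluster, which did not differ beyond counting error. In hypertrophic chondrocyte-like cells Peg3 was at 2163 and Plagl1 at 2095 CPM, beside Dlk1 at 982 CPM. In Cd36/Fabp4 EC-like cells Peg3 was at 477 and Plagl1 at 849 CPM, beside Dlk1 at 351 CPM. In mural-like cells, where Dlk1 was high, Peg3 was at 649 and Plagl1 at 479 CPM. In osteoclast-like cells the levels were 65.5 and 44.7 CPM.

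The pattern of Peg3 was most like that of Plagl1, with a correlation of 0.969 over the 32 points, followed by Reck, at 0.943, and H19, at 0.943. That of Plagl1 was most like Peg3, then H19, at 0.955, and Igf2, at 0.952. H19 and Igf2 are an imprinted noncoding RNA and the growth factor encoded beside it. The correlation of Dlk1 was 0.855 with Peg3 and 0.777 with Plagl1.

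Cdkn1c, an inhibitor of cyclin-dependent kinases that is needed for growth plate cartilage to stop dividing and mature, had a different peak. It was highest in hypertrophic chondrocyte-like cells, the cells that express Col10a1 and Ihh, at 6448 CPM in wild-type (6341 to 6556) and 6013 CPM in Bmx-CreER Wls cells (5918 to 6110). Single wild-type cells of this cluster ranged from 2072 CPM at the 10th percentile to 10388 CPM at the 90th percentile, with a median of 5594 CPM. The next levels in wild-type cells were 3472 CPM in tendon-like (3212 to 3747) and 3058 CPM in BMSC-like cells (3002 to 3115), with 2598 CPM in the Tnn/Ucma cluster and 2523 CPM in chondrocyte-like cells. Cdkn1c was at 418 CPM in osteoblast-like and 246 CPM in Cd36/Fabp4 EC-like cells, and at 40.8 CPM in osteoclast-like cells. Hypertrophic chondrocyte-like cells thus held more Cdkn1c than chondrocyte-like cells and less Dlk1, at 982 against 4694 CPM.

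The mural-like cluster showed how a level can come from few cells. Cdkn1c was at 1197 CPM in the wild-type mural-like cluster, but at a finer resolution 45 wild-type cells that express muscle genes such as Myog and Actc1, or glia genes, held 3318 CPM. The other 127 cells, led by Acta2 and Rgs5, held 431 CPM of Cdkn1c and 8275 CPM of Dlk1.

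Grb10, an adaptor protein that dampens signalling of the insulin and IGF receptors, was spread over stromal, cartilage, bone and endothelial clusters alike. Its highest wild-type levels were 1394 CPM in chondrocyte-like cells (1351 to 1437) and 1322 CPM in tendon-like cells (1163 to 1495), which overlapped. In the other clusters outside the blood lineages Grb10 was between 416 CPM, in the Hbegf/Clic5 cluster, and 893 CPM, in BMSC-like cells, and EC-like cells were within this range at 490 to 822 CPM. The genes closest to Grb10 in pattern were Nedd4, which encodes a ubiquitin ligase, with a correlation of 0.932, Cnn3, at 0.923, and Armcx4, at 0.906.

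UMIs of Grb10 were also found in haematopoietic cells. It was at 207 CPM in wild-type and 187 CPM in Bmx-CreER Wls Mpo/Myb cells, against 27.0 and 11.7 CPM in osteoclast-like cells. At 1000 UMIs per cell, 16.3% and 17.2% of the Mpo/Myb cells had a Grb10 UMI, against 0.606% and 2.80% of the osteoclast-like cells, and without thinning 61.0% and 60.8% against 5.95% and 6.48%. The median depths of the 2 clusters were similar at 7365 and 7470.5 UMIs. There were 1.503 UMIs of Grb10 for 1 of Dlk1 in wild-type Mpo/Myb cells, where the whole library had 0.158, while Peg3 to Dlk1 was 0.364 in these cells and 0.425 in the library. In the Bmx-CreER Wls library Grb10 to Dlk1 was 0.475 in Mpo/Myb cells and 0.0980 overall. Within this cluster the cells that express the erythroid genes Rhag, Klf1 and Gata1 had 251 CPM of Grb10 in 213 wild-type and 258 CPM in 114 Bmx-CreER Wls cells. The cells that the study named erythroid held 253 CPM, megakaryocyte progenitors 242 CPM, myeloid progenitors 244 CPM, multipotent HSPCs 52.1 CPM and neutrophil progenitors 8.37 CPM. Grb10 and Dlk1 thus both ranged widely between these blood cell types. They were at like levels in myeloid and megakaryocyte progenitors, where Dlk1 held 275 and 265 CPM, while in the 65 erythroid cells Dlk1 was at 25.1 CPM. Free RNA as a part of these levels was not tested.

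Mest, which encodes a membrane protein of the hydrolase family found in fetal mesoderm, was high in tendon-like cells at 1065 CPM (923 to 1222), in Cd36/Fabp4 EC-like cells at 1034 CPM (976 to 1094) and in Stab1/Fam167b EC-like cells at 956 CPM (877 to 1042), whose intervals overlapped. At 1000 UMIs per cell 60.1% of Cd36/Fabp4 and 57.6% of Stab1/Fam167b EC-like cells in the wild-type library had a Mest UMI, against 1.21% of osteoclast-like cells, and without thinning 83.9% and 79.9% against 2.98%. Arterial EC-like cells were much lower at 193 CPM (142 to 256). In the annotated wild-type endothelial cells Mest was at 1206 CPM in the capillary-1 group, 863 CPM in sinusoidal and 291 CPM in arterial cells. Wild-type BMSC-like cells held 735 CPM of Mest, the Tnn/Ucma cluster 673 CPM and the Prg4/Cilp cluster 537 CPM. Mest was low in hypertrophic chondrocyte-like cells at 97.1 CPM. Endothelial subtypes thus differed in Mest, with arterial EC-like cells at the low end in both libraries. The patterns closest to Mest were those of Tshz2, at 0.925, H1f0, at 0.890, and Armcx4, at 0.888.

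**Figure D2:**
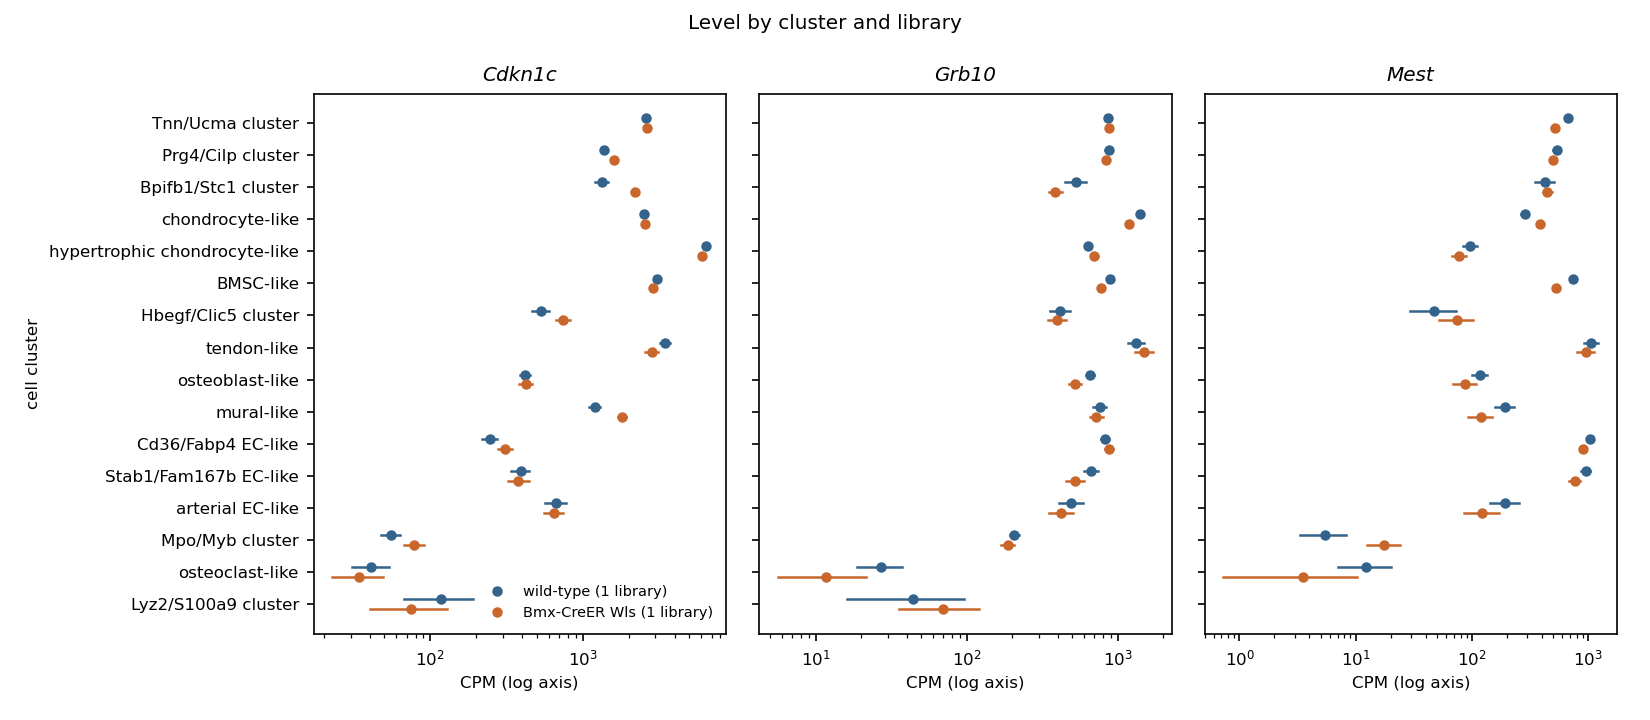
CPM of Cdkn1c, Grb10 and Mest in each cluster of both libraries, with 95% Poisson intervals. Cdkn1c is highest in hypertrophic chondrocyte-like cells at 6448 and 6013 CPM, and Mest is lower in arterial than in the other EC-like cells in both libraries.

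Together the 9 genes took 2.45% of all UMIs in the wild-type Tnn/Ucma cluster and 2.36% in BMSC-like cells, against 0.387% in Cd36/Fabp4 EC-like, 0.213% in osteoblast-like and 0.0273% in osteoclast-like cells. The median cell thinned to 1000 UMIs had UMIs of 6 of the 9 genes in both of the first clusters. In the Mpo/Myb and osteoclast-like clusters the median cell had UMIs of 0 of them, and 70.9% and 89.1% of the thinned wild-type cells had none.

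Between the libraries, the clearest difference was in chondrocyte-like cells, where Dlk1, Meg3 and Mirg were higher by a ratio of about 2 in the Bmx-CreER Wls library. Dlk1 was at 4694 CPM in wild-type and 9672 CPM in Bmx-CreER Wls chondrocyte-like cells, a ratio of 2.06 (2.02 to 2.10). Meg3 was at 866 and 1743 CPM, a ratio of 2.01 (1.92 to 2.11), and Mirg at 114 and 213 CPM, a ratio of 1.88 (1.64 to 2.15). Rian, at 197 and 280 CPM, had a lower ratio of 1.42 (1.28 to 1.58). The other 5 genes had ratios from 0.846 for Grb10 to 1.35 for Mest. At a cut of 1.5-fold, 3 of the 9 genes were thus higher and 0 lower in this cluster, where 3.77% of 6400 genes with at least 100 UMIs were higher and 4% lower by as much.

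The difference in Dlk1 was present in low and in high cells. The 10th percentile, median and 90th percentile of single chondrocyte-like cells were 1087, 4660 and 11702 CPM in wild-type and 2984, 10850 and 19263 CPM in Bmx-CreER Wls cells. At a finer resolution, the main chondrocyte-like subcluster, led by Epyc, had 5818 CPM of Dlk1 in 633 wild-type and 11138 CPM in 783 Bmx-CreER Wls cells. A subcluster of the Tnn/Ucma cells led by the immediate early genes Socs3, Jun and Fosb had 6053 and 10761 CPM. The summed level of 6 chondrocyte markers in chondrocyte-like cells was 139449 and 142819 CPM, a ratio of 1.02. That of 6 BMSC markers was 1507 and 2465 CPM, with 5 of 6 higher, and that of 6 osteoblast markers 215 and 123 CPM, with 0 of 6 higher. In the same cells Neat1 was at 118 and 75.5 CPM, a ratio of 0.639, and Malat1 had a ratio of 1.02. The part of these markers and RNAs in the difference was not tested.

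**Figure D3:**
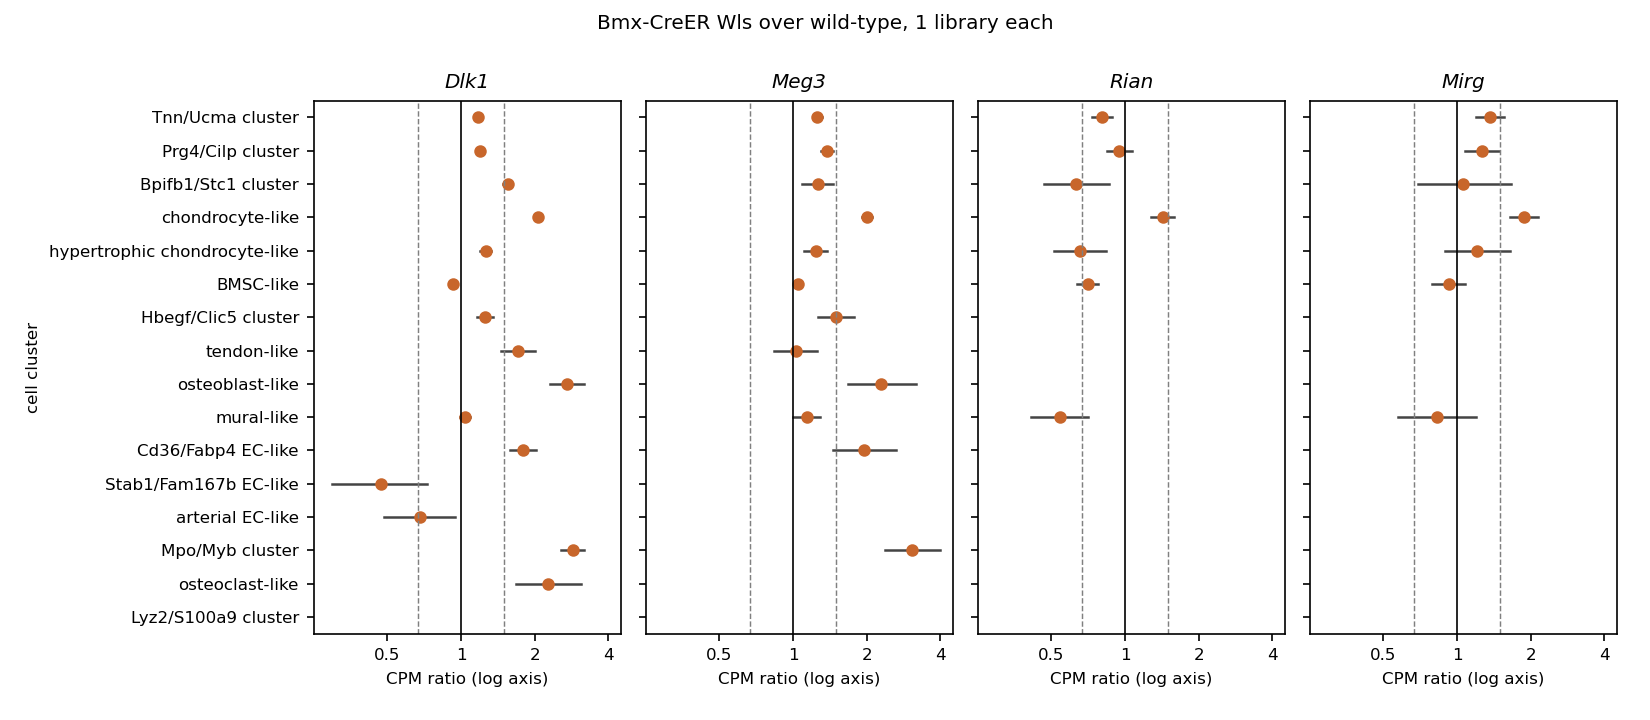
Ratio of CPM in the Bmx-CreER Wls over the wild-type library for Dlk1, Meg3, Rian and Mirg in each cluster, with 95% intervals, on a log scale. In chondrocyte-like cells Dlk1 and Meg3 lie at 2.06 and 2.01, while Rian lies below 1 in most clusters.

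Over all clusters, 109 of the 144 pairs of a gene and a cluster had at least 100 UMIs over both libraries, and the others were not counted. Of the 109, 16 (14.7%) were at least 1.5-fold higher in Bmx-CreER Wls cells and 5 (4.59%) at least 1.5-fold lower, beside 3.96% and 3.03% of all 61535 pairs of a gene and a cluster. Dlk1 made up 7 of the 16 and Meg3 4 of them. Dlk1 was above 1 in 12 of 15 clusters and Meg3 in 12 of 12. Grb10 passed the cut in 0 of 14 clusters, and its ratios ran from 0.727 to 1.13. Mest was above 1 in only 2 of 11 clusters, with a median ratio of 0.802. Just outside the cut lay Meg3 in the Hbegf/Clic5 cluster at a ratio of 1.496 and just inside it Cdkn1c in mural-like cells at 1.503.

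Several of the higher ratios were in clusters where these genes were low and where cartilage markers moved with them. In the Mpo/Myb cluster Dlk1 was at 138 and 394 CPM, a ratio of 2.86, Meg3 at 25.3 and 77.6 CPM, Peg3 at 50.2 and 90.7 CPM and Plagl1 at 30.5 and 69.3 CPM, while Grb10 had a ratio of 0.904. At the finer resolution the ratio of Dlk1 was 7.14 in the cells with erythroid genes and 1.79 in those led by Mpo and Prg2. In the same order Peg3 was at 2.84 and 1.42 and Plagl1 at 6.42 and 1.33, the last with an interval of 0.973 to 1.81. The summed chondrocyte markers in the whole Mpo/Myb cluster were at 914 and 1839 CPM, with 5 of 6 higher and none at 0, and the BMSC markers at 89.8 and 134 CPM, with 6 of 6 higher. In Cd36/Fabp4 EC-like cells Dlk1 was at 351 and 629 CPM and Meg3 at 63.0 and 123 CPM, and the chondrocyte markers were at 1652 and 3338 CPM, with 6 of 6 higher. In osteoblast-like cells Dlk1 was at 160 and 434 CPM and Meg3 had 68 and 100 UMIs, beside chondrocyte markers at 4408 and 6213 CPM. In tendon-like cells Dlk1 was at 1400 and 2388 CPM beside chondrocyte markers at 624 and 4186 CPM. In osteoclast-like cells Dlk1 was at 56.2 and 128 CPM although the chondrocyte markers were lower, at 2032 and 957 CPM. In BMSC-like cells the chondrocyte markers were at 2501 and 3969 CPM, with 6 of 6 higher, while the ratio of Dlk1 was 0.932. In arterial EC-like cells they were at 1833 and 2416 CPM, with 4 of 6 higher, beside a Dlk1 ratio of 0.680. In Stab1/Fam167b EC-like cells they were at 304 and 542 CPM, beside a Dlk1 ratio of 0.472. The part of these markers in the ratios was not tested. Without the 3 haematopoietic clusters, an alternative added after seeing the data, 11 pairs were higher and 5 lower among the fewer pairs left. The share of all genes without these clusters was not computed.

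The remaining higher ratios were those of Dlk1 in the Bpifb1/Stc1 cluster, at 8294 and 12876 CPM, a ratio of 1.55, and of Cdkn1c in the same cluster, at 1336 and 2190 CPM, a ratio of 1.64, and in mural-like cells, at 1197 and 1799 CPM. In mural-like cells the muscle and glia cells described above held 3318 and 6469 CPM of Cdkn1c, and the Acta2 and Rgs5 cells 431 and 519 CPM, a ratio of 1.21 (0.988 to 1.47). The 5 lower ratios were those of Rian in hypertrophic chondrocyte-like cells at 72.0 and 47.3 CPM, in the Bpifb1/Stc1 cluster at 215 and 135 CPM and in mural-like cells at 278 and 151 CPM, of Mest in mural-like cells at 192 and 119 CPM, and of Dlk1 in Stab1/Fam167b EC-like cells at 152 and 71.8 CPM, from 84 and 29 UMIs.

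Part of the difference seen in whole libraries lay in the share of the UMIs that each cluster held. Over the whole library Dlk1 was at 4541 and 7394 CPM, a ratio of 1.63, and Meg3 at 664 and 1087 CPM, a ratio of 1.64. With the clusters weighted by their share of the wild-type UMIs the ratios were 1.23 for Dlk1, 1.33 for Meg3 and 1.32 for Mirg. With the same weights Rian was at 0.886, Mest at 0.857 and Grb10 at 0.918, and Peg3, Plagl1 and Cdkn1c lay between 0.974 and 1.002.

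Within the locus, Rian and Meg3 did not keep the same ratio in the libraries. There were 0.227 UMIs of Rian for 1 of Meg3 in the whole wild-type library (0.219 to 0.236) and 0.156 in the Bmx-CreER Wls library (0.151 to 0.161). The ratio was lower in Bmx-CreER Wls cells in 12 of 12 clusters with at least 100 UMIs of the pair over both libraries, and in 7 of these the intervals did not overlap. How often other pairs of genes show the same was not counted. Osteoblast-like cells are among the 12 with only 8 and 9 UMIs of Rian. In osteoclast-like cells, which are under that number, the ratio was higher in the Bmx-CreER Wls library, at 0.107 and 0.185 from 3 and 5 UMIs of Rian, with overlapping intervals. In the Tnn/Ucma cluster it was 0.252 and 0.160, in BMSC-like cells 0.197 and 0.133 and in chondrocyte-like cells 0.227 and 0.161. The largest gap was in mural-like cells, at 0.338 and 0.161. The clusters of a library were prepared together and are not independent readings of the genotype.

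**Figure D4:**
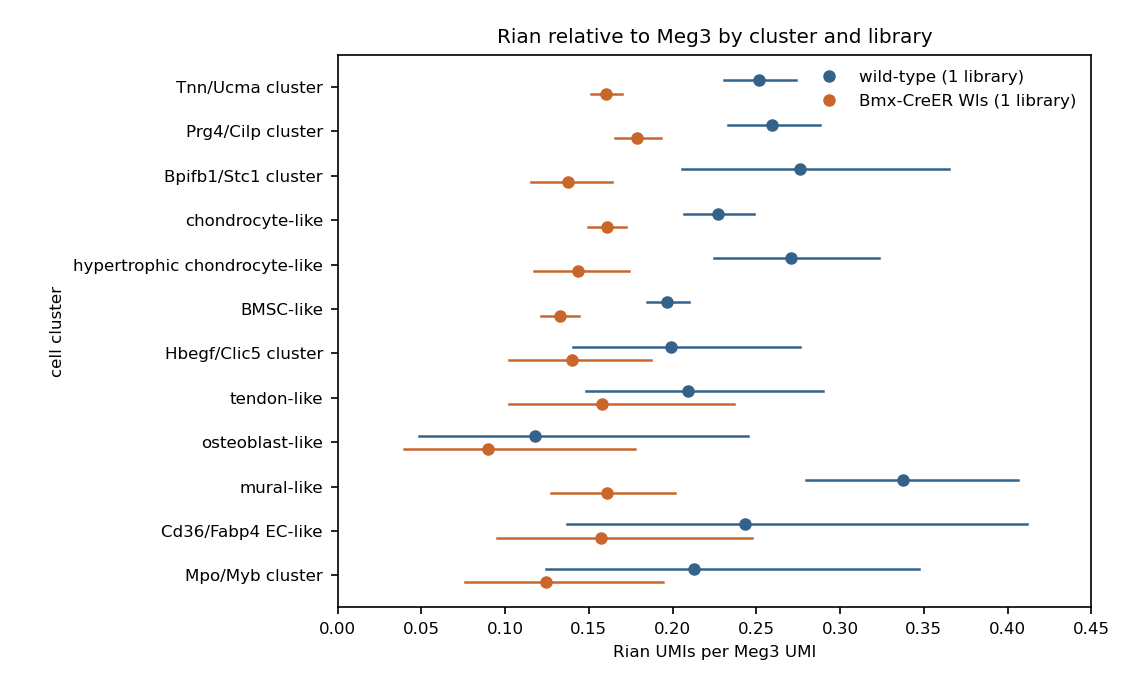
UMIs of Rian per UMI of Meg3 in the 12 clusters with at least 100 UMIs of the pair, for each library, with 95% intervals. The value of the Bmx-CreER Wls library lies below that of the wild-type library in every cluster shown, from 0.0900 to 0.179 against 0.118 to 0.338.

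The ratio of Mirg to Meg3 showed no such difference, at 0.101 and 0.109 in the whole libraries, lower in Bmx-CreER Wls cells in 9 of 12 clusters with overlapping intervals in each. Malat1 and Neat1, other nuclear noncoding RNAs, had ratios of Bmx-CreER Wls to wild-type CPM of 0.928 and 0.907 over whole libraries. Over the clusters these ratios ran from 0.611 to 1.196 for Malat1 and from 0.427 to 1.22 for Neat1, with the lowest in hypertrophic chondrocyte-like and in mural-like cells. In BMSC-like cells, where the ratio of Rian to Meg3 was lower, Neat1 was higher at 1.15. The mitochondrial share of UMIs was 4.96% in wild-type and 4.23% in Bmx-CreER Wls cells. The part of these measures in the difference was not tested. A noncoding gene inside Rian on the same strand, Gm26945, had 15 and 25 UMIs, against 3364 and 4141 of Rian.

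Dividing cells were compared with the other cells of the same cluster and library, since several of these genes are known to restrain growth. A cell was called mitotic when it had UMIs of at least 2 of 12 mitotic genes such as Mki67 and Top2a. In the 4 largest mesenchymal clusters of both libraries, which give 8 readings, Dlk1, Meg3, Peg3 and Plagl1 were lower in mitotic cells in 8 of 8, each with an interval below 1. Of 34278 readings of any gene with at least 100 UMIs in these clusters 15.7% had an interval below 1, and of 2327 genes with that many UMIs in all 8 readings 2.54% had it in 8 of 8. An interval narrows with the number of UMIs, and these 4 genes are abundant. The ratio of mitotic to other cells for Plagl1 ran from 0.672 to 0.840 with a median of 0.714. Meg3 ratios ran from 0.601 to 0.901, Peg3 from 0.778 to 0.931 and Dlk1 from 0.855 to 0.943. In the wild-type Tnn/Ucma cluster Plagl1 was at 2482 CPM in mitotic and 3635 CPM in other cells, and in the Bmx-CreER Wls library at 2356 and 3494 CPM.

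Cdkn1c, the cell cycle inhibitor among the 9, differed between these clusters. Its ratio in the 8 readings ran from 0.847 to 1.19, with the interval below 1 in 3 readings and above 1 in 2, both of them chondrocyte-like. There Cdkn1c was at 2811 CPM in mitotic and 2402 CPM in other wild-type cells, a ratio of 1.17 (1.11 to 1.23), and at 2918 and 2460 CPM in Bmx-CreER Wls cells, a ratio of 1.19. In BMSC-like cells it was at 2714 and 3205 CPM in the wild-type and at 2625 and 2976 CPM in the Bmx-CreER Wls library. Over all clusters with at least 100 UMIs of Cdkn1c, its ratio was below 1 in 15 of 21 readings, with a median of 0.830, and it was at least 1.5-fold lower in 5 and higher in 0. The lowest were those of the Mpo/Myb cluster, where Cdkn1c was at 51.2 CPM in mitotic and 123 CPM in other wild-type cells and at 62.7 and 280 CPM in the Bmx-CreER Wls library. In this cluster 16.4% of all tested genes in the wild-type and 15.4% in the Bmx-CreER Wls library were at least 1.5-fold lower in mitotic cells. Over all clusters the lowest ratio was 0.224 for Cdkn1c, beside 0.245 for Dlk1, 0.192 for Meg3, 0.168 for Plagl1 and 0.147 for Peg3. Grb10 had an interval above 1 in 2 of the 8 readings and below 1 in 1, and Mest below 1 in 1.

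Mirg was lower in mitotic cells in 6 and Rian in 5 of the 8 readings. These ratios are modest, and those of Dlk1 do not hold in other clusters. Over all clusters Dlk1 was lower in 14 of 20 readings, at least 1.5-fold lower in 2 of them, both in the Mpo/Myb cluster, and at least 1.5-fold higher in 4, with the highest at 2.68 in wild-type Cd36/Fabp4 EC-like cells. Meg3 was lower in 13 of 16 readings, Peg3 in 16 of 20 and Plagl1 in 16 of 21. The median ratio over all tested genes of a cluster and library ran from 0.940 to 1.13. How often other genes are lower in as many readings was not counted. None of the 9 genes passes 1.5-fold in all of the 8 readings, and over all clusters and both libraries 9.43% of 66969 readings of any gene were at least 1.5-fold lower and 13.8% at least 1.5-fold higher in mitotic cells. Mitotic cells were deeper, for example with a median of 2800 against 1979 UMIs in the wild-type Tnn/Ucma cluster, where they made up 27.4% of the cells. With every cell thinned to 2000 UMIs, Plagl1 was lower in 8 of 8 readings, and Dlk1, Meg3 and Peg3 in 7 of 8.

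**Figure D5:**
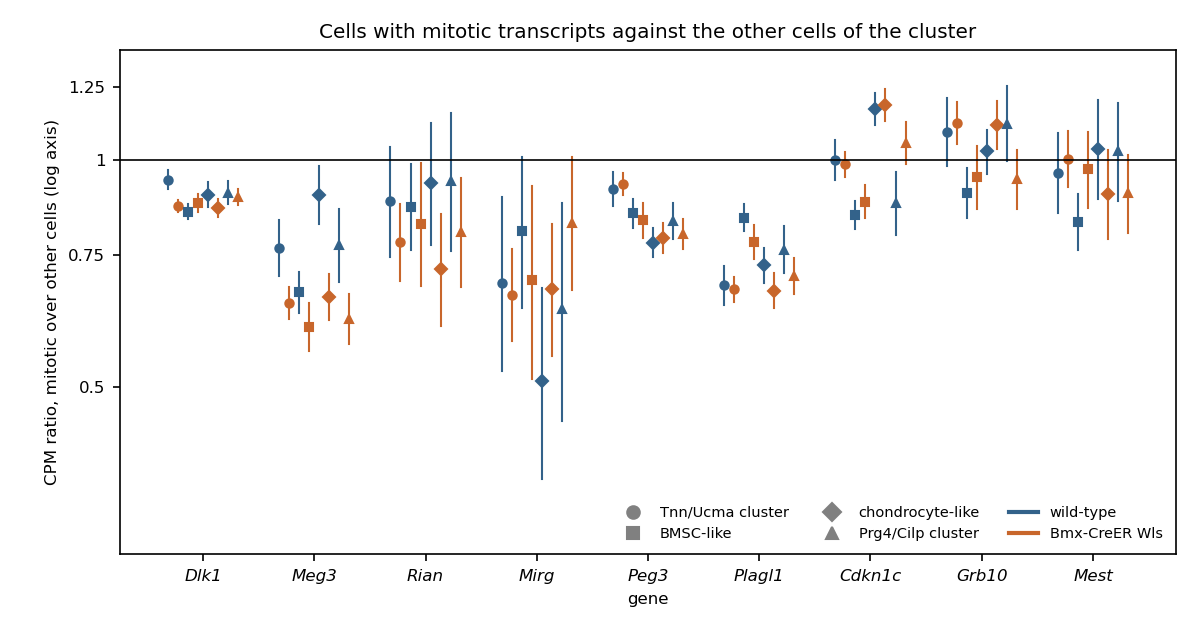
Ratio of CPM in mitotic over other cells for each of the 9 genes in the 4 largest mesenchymal clusters of both libraries, with 95% intervals. All 8 points of Plagl1 lie between 0.672 and 0.840, while those of Cdkn1c lie on both sides of 1.

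A list of 46 other imprinted genes was read in the same way, of which 41 had a count and 28 had at least 100 UMIs in some cluster. Of 177 pairs of these genes and a cluster, 19 (10.7%) were at least 1.5-fold higher in Bmx-CreER Wls cells and 6 (3.39%) lower, with a median ratio of 1.06, beside 3.96% and 3.03% of all genes. H19 and Igf2 had the most UMIs, at 20356 and 10820 CPM in the wild-type library, but in chondrocyte-like cells, where Dlk1 was at a ratio of 2.06, H19 was at 1.04 and Igf2 at 1.15. H19 and Igf2 passed the cut only in the 3 haematopoietic clusters, where both were higher in Mpo/Myb cells and lower in osteoclast-like and Lyz2/S100a9 cells. Igf2r, the receptor that removes Igf2, passed it in 0 of 14 clusters. Peg10, a gene derived from a retrotransposon, was higher in 4 of 8 clusters, among them chondrocyte-like cells at 289 and 452 CPM. H13 was higher in 3 of 12 clusters. Gnas, Begain and Trappc9 were higher in 2 each, and Asb4 was higher in 1 and lower in 1. Begain, which lies near Dlk1, was at 13.3 and 31.8 CPM in the Tnn/Ucma cluster and at 39.5 and 66.3 CPM in BMSC-like cells.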

How the data were processed

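Single-cell transcriptomes of 2 libraries, 1 per group, were analysed from the deposited tables of UMI counts per gene and cell. Per the labels and the methods, the authors processed reads with bcl2fastq 2.19.1.403 and UMI-tools 1.0.1, aligned them to mm10 with STAR 2.7.1a and counted UMIs per gene with Subread featureCounts 1.6.4. The strand setting and annotation of the counting are not given in the sources used here, so that reads of Mest cannot be told apart from those of Copg2, which overlaps its end by 912 bp on the other strand and had 648 and 703 UMIs.

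The quality filter followed the methods, with above 200 and below 5000 detected genes per cell and below 30% mitochondrial UMIs. Doublets were not removed. Both libraries were clustered together without integration in Python 3.11.15 with scanpy 1.11.5 and leidenalg 0.10.2 on 2010 variable genes, after 3 of the 9 genes were taken out of 2013, with 11 principal components, 20 neighbours and a resolution of 0.5. A cluster was named after a cell type from marker lists, and otherwise after its leading genes. Names of the study's own cells were joined by barcode for the wild-type library and serve as a comparison.

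Levels were summed UMIs per 1000000 UMIs with exact Poisson intervals, shares had Clopper-Pearson intervals, and ratios exact conditional binomial intervals (scipy 1.17.1), all at 95%. With 1 library per group no test was run, and a ratio counted as higher or lower from 1.5-fold on where a gene had at least 100 UMIs in a cluster, both libraries summed. The ratio step was tested on simulated data. For shares, cells were thinned to 1000 UMIs and shallower cells left out. Named were all 9 genes, the 3 genes most correlated with each, and, of the other imprinted genes, the 3 with the most UMIs and those past 1.5-fold in 2 or more clusters. The members, lists and comparisons were chosen with earlier results of these data known.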

Additional observations from a re-analysis of the deposited data

Results flagged for a closer look

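By summed UMIs, the ratio of Dlk1 between the libraries passed the cut in opposite directions in different clusters. In chondrocyte-like cells the ratio of the Bmx-CreER Wls over the wild-type library was 2.06, from 13792 and 30636 UMIs, and in Stab1/Fam167b EC-like cells it was 0.472, from 84 and 29 UMIs. The difference between these ratios was not tested, since each rests on 1 library per group. In the Stab1/Fam167b EC-like cells the summed BMSC markers moved the same way as Dlk1, at 246 and 116 CPM. The summed chondrocyte markers moved the other way, at 304 and 542 CPM, with 5 of 6 higher. The part of either list in the ratio was not tested.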

How the results depend on the processing

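No paired analysis was possible because each group has 1 library, and for the same reason no replicate could be left out. The count of 16 higher pairs of a gene and a cluster became 27 with a minimum of 1 UMI in each library and 8 at a cut of 2-fold, and that of 5 lower pairs became 13, 1 and, with a minimum of 30 UMIs, 8. A lower minimum lets in more pairs than the 109 counted above, so that these counts are not shares of the same set. The share of all genes at these settings was not computed. Under the other settings the higher pairs numbered 11 to 21 and the lower pairs 4 to 6. The summed level of the 9 genes in wild-type BMSC-like cells, 23581 CPM, became 24053 with the 9 genes kept in the clustering, 24622 without haemoglobin and mitochondrial genes in the total, 23754 without the 5% highest doublet scores, 23942 as a mean over cells and 24265 with the study's cell names. The ratio of Dlk1 to Meg3, 6.84 and 6.80, became 6.98 and 7.07 in cells with at least 1000 UMIs and under 10% mitochondrial UMIs. None of the ratios recomputed changed direction. With 30 principal components the ratio of Dlk1 in Stab1/Fam167b EC-like cells became 0.966 and that of Rian in hypertrophic chondrocyte-like cells 0.989. Dlk1 in the Bpifb1/Stc1 cluster passed to 1.45 with 30 components and 1.46 with the 9 genes kept, under the cut of 1.5. Without the highest doublet scores Dlk1 in osteoblast-like cells was at 1.69 and Cdkn1c in mural-like cells at 1.29. Shared barcodes left out, an alternative added after seeing the data like those on haematopoietic clusters and mural-like cells, gave 15 higher and 5 lower pairs. In wild-type chondrocytes named by the study Grb10 was at 981 CPM against 1394 in the chondrocyte-like cluster. Levels of a few UMIs, such as Wls in arterial EC-like cells or Rian in osteoclast-like cells, are limited by depth. The cause of these changes was not tested.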
